A study of Mus musculus with 4 samples.

Results

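The cytosolic ribosome is built from a large and a small subunit, and its protein genes were followed here as one module in kidney cells of mice with a mitochondrial transfer RNA mutation. Members were all genes whose symbol is Rpl or Rps followed by a number, with or without an ending a, l, x or l1, together with Rplp0, Rplp1, Rplp2 and Rpsa. The rule took 82 of the 32285 genes in the files: 46 of the large subunit, 30 of the small subunit and 6 paralogs with an l or l1 ending. Named pseudogenes and the mitochondrial ribosomal proteins, a separate set of 78 genes, are outside it. The rule used symbols only, so no measured value chose the members.

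Kidneys came from mice carrying a point mutation in mitochondrial TrnE, the gene of the transfer RNA for glutamate, and from wild-type C57BL/6J mice. Whole kidney was digested, viable single cells were sorted, and RNA was read from the 3′ end in droplets with unique molecular identifiers (UMIs), each of which marks 1 captured RNA molecule. The 2 mutant libraries carried mutation loads of 79% and 76% per the labels, and there were 2 wild-type libraries. Age and sex are not stated in the labels, and nothing says whether the libraries of a group shared a litter or a day. The TrnE gene lies in the mitochondrial genome, and the load within single cell types is not given.

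Ribosomal proteins are made on the same ribosomes they build, and their messenger RNAs are among the most abundant in a growing or dividing cell. Many of these messenger RNAs begin with a run of C and U bases, the 5′ terminal oligopyrimidine tract (TOP), through which their translation is tied to growth signals passing through mTORC1 and LARP1. Several members have duties beside the ribosome: Rpl5 and Rpl11 bind Mdm2 and so restrain the breakdown of p53, Rps6 is the substrate of the S6 kinases, Rps27a is made as a fusion with ubiquitin, and Rplp0, Rplp1 and Rplp2 form the stalk that recruits translation factors.

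The C and T runs near transcription starts are shown first because they are the sequence feature this module is known for and the rule did not use it. RefSeq start sites on GRCm38.p6 were listed for 62 of the 82 members, with 74 starts in all. A window of 30 bases was taken, from 15 before the start to 15 from the start on. It was searched on the strand of the gene for a run of at least 8 bases made of C and T alone. Such a run was present at 28 of the 74 member starts (37.8%) and at 3943 of the 32851 starts in the whole table. A run of at least 8 bases made of A and G alone, searched in the same way, was present at 4.05% of member starts and 13.2% of all starts. The windows below are those of 8 members that recur in the results, 4 with such a run and 4 without, and of 4 paralogs, 5′ to 3′ on the strand of the gene, with the longest C and T run of at least 8 bases in capitals.
Rps6, chr4:86857353-86857382, minus strand: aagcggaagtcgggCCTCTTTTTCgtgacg
Rps27, chr3:90213634-90213663, minus strand: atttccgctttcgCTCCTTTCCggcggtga
Rps15a, chr7:118116133-118116162, minus strand: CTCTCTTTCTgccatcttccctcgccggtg
Rplp2, chr7:141447636-141447665, plus strand: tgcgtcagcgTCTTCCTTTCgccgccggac
Rpsa, chr9:120127751-120127780, plus strand: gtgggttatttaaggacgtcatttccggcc
Rpl10a, the upstream of its 2 listed starts, chr17:28328456-28328485, plus strand: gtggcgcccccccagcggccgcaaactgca
Rps15, chr10:80292416-80292445, plus strand: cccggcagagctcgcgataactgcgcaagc
Rpl5, chr5:107900513-107900542, plus strand: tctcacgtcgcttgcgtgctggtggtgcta
Rpl22l1, chr3:28805493-28805522, plus strand: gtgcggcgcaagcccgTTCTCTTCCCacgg
Rps27l, the upstream of its 2 listed starts, chr9:66946071-66946100, plus strand: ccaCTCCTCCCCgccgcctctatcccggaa
Rpl7l1, chr17:46782642-46782671, minus strand: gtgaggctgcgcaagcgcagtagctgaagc
Rpl39l, chr16:10170213-10170242, plus strand: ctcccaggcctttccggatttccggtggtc
Rpsa, Rpl10a, Rps15, Rpl5, Rpl7l1 and Rpl39l hold no such run in these windows. The match is a description of these letters, and the start used in these cells was not measured.

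The 4 libraries held between 42121175 and 70013861 UMIs, of which 10.8% to 15.8% fell on members. After filtering, 30428 of 37041 barcodes remained, with library medians of 4366 to 6465.5 UMIs per cell. Pairs of libraries shared 14 to 26 barcodes. Cells were sorted into classes from marker genes, so that proximal tubule below means proximal tubule-like, and likewise for the other names. The targeted base is not read by these counts, so the genotype of the libraries could not be checked. No correction for free RNA was made: the 12 proximal tubule markers, all detected, summed to 111 to 540 CPM (counts per 1000000 UMIs of the class in a library) in T cells and to 16504 to 21041 in the proximal tubule. Wild type 2 stood apart from the other libraries in several ways that touch the results, and these are given where they do.

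Of the 82 members, 81 had at least 1 UMI in kept cells. Rpl10l, a paralog of Rpl10 known from the testis, had 0 of 213230253 UMIs, which allows up to 0.0141 CPM. The other members were spread over a broad plateau: 78 exceeded 100 CPM over all kept cells, and the 10 most abundant members held only 20.9% of the module's UMIs. Because 3′ UMIs count molecules and not fragments, levels of different genes are given without scaling to length, although capture can still differ between genes. Rps24, of the small subunit, was the most abundant with 4375 ± 1106 CPM (SD, n = 4 libraries). It was followed by Rpl13 at 3341 ± 887, Rpl23 at 3190 ± 625 and Rplp1 at 3168 ± 377 CPM. The ranges of mean ± SD of these 4 levels overlap, and their order was not tested.

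Lymphocytes, dendritic cells, monocytes and macrophages gave the module a larger part of their UMIs than tubule cells did. Mitochondrial UMIs, part of these totals, made up 1.53% to 4.58% there. They made up 8.21% to 24.9% in the proximal tubule, thick ascending limb and distal convoluted and connecting tubule. With them left out, macrophages of wild type 2 had 10.4%, below the latter 2 segments in mutant 1 (11.3% and 11.4%) but above them in wild type 2 (9.11% and 10.1%). In B cells, 28.3%, 24.7%, 23.7% and 20.5% of UMIs fell on members (mutant 1, mutant 2, wild type 1 and wild type 2, in this order throughout). T cells followed with 26.9%, 22.3%, 22.7% and 20.6%. The proximal tubule, where glucose, amino acids and much of the sodium return from the filtrate, gave 8.71%, 7.35%, 7.38% and 5.91%, the lowest mean of the 13 classes. Every B cell and T cell value was more than 2 times every one of these proximal tubule values. Without the deep, Malat1-rich clusters described below, the proximal tubule gave 10.5%, 8.01%, 8.98% and 9.88%. Each of these values lay above the means of the thick ascending limb (7.80%) and of the distal convoluted and connecting tubule (7.93%). The lowest rank thus held only with those clusters included. The other classes were left as they were.

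Between these ends the classes were ordered by mean share. Dendritic cells stood at 21.7 ± 3.01% and NK cells at 20.4 ± 1.78%, and with B and T cells they formed a top group whose ranges overlap. Monocytes (16.2 ± 2.36%) and macrophages (13.9 ± 3.19%) came next and overlapped each other. The distal convoluted and connecting tubule (7.93 ± 1.52%), the thick ascending limb (7.80 ± 1.23%) and the proximal tubule (7.34 ± 1.15%) were not separated by their spread (SD, n = 4 for each). In 3 libraries with at least 50 cells, endothelium held 8.55 ± 1.32%, acid-base regulating intercalated cells 9.13 ± 0.990% and neutrophils 7.79 ± 1.36%, while plasma cells reached 50 cells only in wild type 2 and held 9.88% there. Neutrophils thus lay within the range of the tubule classes, and neutrophils and plasma cells lay below every value of the other immune classes.

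**Figure D1:**
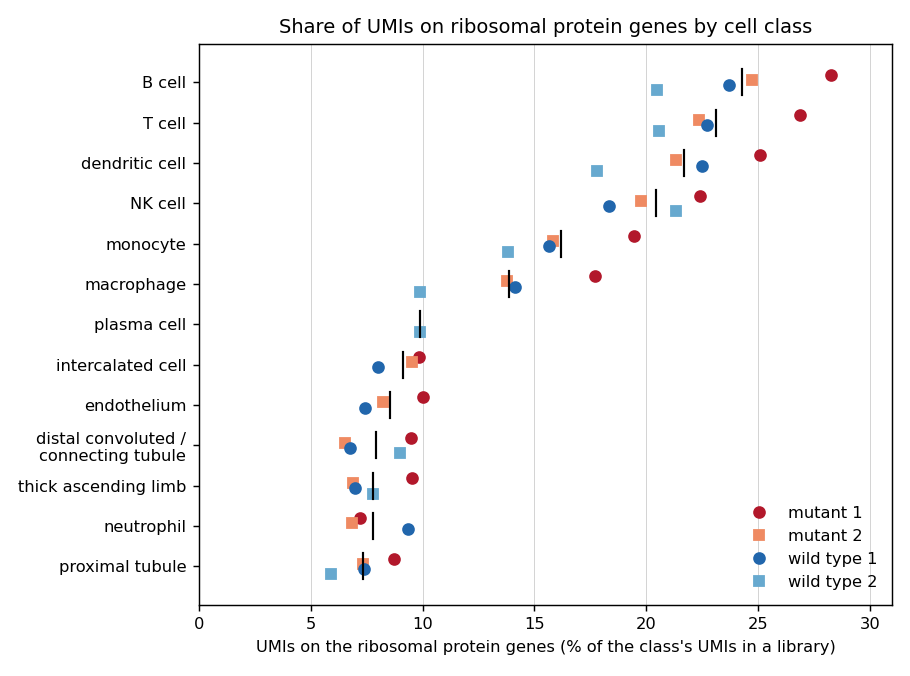
Share of UMIs on the 82 ribosomal protein genes (horizontal axis, percent of the UMIs of a class in a library) in 13 cell classes. Each point is 1 library with at least 50 cells of the class and each black line is the mean; B and T cell points lie between 20.5% and 28.3%, and proximal tubule points between 5.91% and 8.71%.

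The contrast of T cell and proximal tubule was also seen gene by gene. The comparison was fitted with the library as a block, so that each mouse served as its own control, with edgeR's quasi-likelihood test on all genes and Benjamini-Hochberg adjustment. Of 80 members tested, 72 passed, against 73.5% of all 14476 genes tested. What differed from the background was the direction: 70 members were higher in T cells, where 32.8% of all genes were, and 2 were lower, where 40.7% of all genes were. The median log2 fold change of the members was 1.24, and that of all genes tested was -0.14. The split of higher to lower calls was 77 to 1 with library totals in place of TMM factors (73.9% of all genes called, 41.2% higher and 32.7% lower), which moved the median of all genes to 0.27.

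Rps15a, a small subunit protein, carried 1035, 818, 879 and 776 CPM in the proximal tubule and 6508, 5443, 5610 and 4906 in T cells. No T cell value came near a proximal tubule value. Its log2 fold change was 2.28 (SE 0.19, edgeR adjusted p = 1.07e-05). Rps27, also of the small subunit, rose from 581 to 650 CPM in the proximal tubule to between 3419 and 3974 in T cells, with a log2 fold change of 2.18 (SE 0.19, adjusted p = 1.26e-05 by edgeR). Rpl12, which sits at the base of the stalk, had a log2 fold change of 2.14, Rps24 of 1.94, Rpsa of 1.93 and Rpl13a of 1.85, all past the threshold. Rpsa is also known as a receptor for laminin at the cell surface, and Rpl13a takes part outside the ribosome in silencing of inflammatory messenger RNAs.

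Members did not differ by the same factor. Rpl28 differed by 0.06 on the log2 scale (edgeR adjusted p = 0.788). Rpl7a, Rpl10, Rps2, Rps25, Rpl31 and Rpl41 also missed the threshold, with log2 fold changes from 0.24 to 0.42. When each library was scaled to the sum of its member UMIs, so that a member was set against the other members, 46 of 80 passed, 19 higher and 27 lower in T cells, against 82.7% of all genes on that scale (14.6% higher and 68.1% lower). The members thus differed by unequal factors between these classes.

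The proximal tubule itself was made of cells with very different shares. For depth, the UMI count of each cell was divided by the median of its library. In 3 clusters the median of this ratio exceeded 2, taken over the cells of all libraries together and not within each library. The smallest of them had 39 of its 47 cells in wild type 2. Summed, these clusters were rich in Malat1, a nuclear noncoding RNA, at 39568 to 73008 CPM. The cells in neither these nor the shallow cluster had 251 to 969 CPM. In these deep clusters, members took 6.35%, 3.87%, 3.88% and 3.13% of UMIs. In the other clusters of usual depth they took 10.4%, 7.75%, 8.91% and 9.82%, and in 1 cluster of shallow cells 11.96%, 12.1%, 11.4% and 10.9%. The deep clusters supplied 43.4%, 16.1%, 31.3% and 58.9% of the summed proximal tubule UMIs, most of all in wild type 2. These subsets were marked out after the data had been seen.

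Setting the deep clusters aside changed the contrast with T cells in size but not in direction: 50 of 80 members passed, 46 higher and 4 lower in T cells, and the median log2 fold change fell from 1.24 to 0.63. Of all genes in that fit 80.4% passed, 41% higher and 39.5% lower. For the thick ascending limb, which reabsorbs salt through Slc12a1, the contrast with the proximal tubule turned on those clusters. With all cells, 2 of 80 members passed, against 38.8% of all 12921 genes tested (18.7% higher and 20.2% lower in the thick ascending limb). Scaled to the sum of member UMIs, 9 of 80 passed, 4 higher and 5 lower, against 34.2% of all genes (17.3% higher and 16.9% lower). Without the deep proximal tubule clusters, all 80 passed, 79 of them lower in the thick ascending limb, with a median log2 fold change of -0.86. Of all genes in that fit 60.2% passed, 29.6% higher and 30.7% lower. The thick ascending limb cells were left as they were in that fit.

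**Figure D2:**
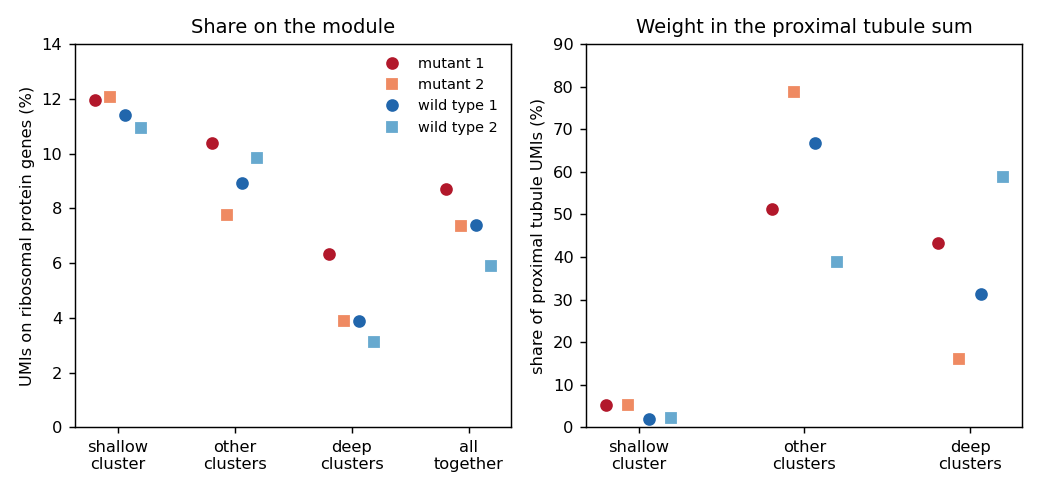
Left, percent of UMIs on ribosomal protein genes in the shallow cluster, the other clusters, the deep Malat1-rich clusters and all proximal tubule cells together; right, percent of the summed proximal tubule UMIs that each kind of cluster supplied. Each point is 1 library; the deep clusters lie lowest on the left in every library and supply from 16.1% to 58.9% of the UMIs on the right.

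Of the paralogs, Rps27l and Rpl7l1 were the 2 members called lower in T cells than in the proximal tubule. Rps27l, the paralog of Rps27 and a known p53 target, lies at chr9:66946086-66949516 on GRCm38. It carried 516, 468, 462 and 481 CPM in the proximal tubule and 145, 115, 114 and 162 in T cells, so that the classes did not overlap. The value of -2.27 on the log2 scale in T cells (SE 0.20, edgeR adjusted p = 1.42e-05) was opposite in sign to that of Rps27, and it was lower in T cells in each alternative fit, from -3.52 to -1.86. Rps27l was also lower in the thick ascending limb than in the proximal tubule, by -0.60 (SE 0.22, edgeR adjusted p = 0.0414), a call that was lost with library totals (adjusted p = 0.0812 by edgeR) and without either mutant or wild type 1 (0.0676 to 0.171).

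As a share of the pair Rps27 and Rps27l, Rps27l made up 43.6 ± 1.36% in the proximal tubule, 42.4 ± 3.73% in the distal convoluted and connecting tubule and 33.2 ± 1.86% in the thick ascending limb (SD, n = 4). In macrophages it made up 12.2 ± 1.81%, in dendritic cells 11.0 ± 2.31% and in monocytes 10.3 ± 2.59%. In NK cells it was 5.11 ± 0.970%, in B cells 3.73 ± 0.924% and in T cells 3.46 ± 0.502%. Tubule, myeloid and lymphoid classes thus formed 3 bands without overlap in any library. Mutant and wild-type means of the proximal tubule were 43.9% and 43.4%.

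Rpl7l1, a paralog of Rpl7 that works in ribosome assembly, was lower in T cells than in the proximal tubule by -0.39 (SE 0.14, edgeR adjusted p = 0.0325). That call was lost in DESeq2 and without any 1 library, and with library totals the value was 0.014. As a share of its pair it was 7.06 ± 0.340% in the proximal tubule and 3.01 ± 0.786% in T cells. Rpl22l1 showed another order. It made up 23.6 ± 2.18% of the pair Rpl22 and Rpl22l1 in the proximal tubule. The share was 28.7 ± 7.72% in the distal convoluted and connecting tubule and 27.0 ± 2.36% in the thick ascending limb. T cells had 27.8 ± 2.11% and NK cells 28.5 ± 2.35%, so these high shares were not particular to lymphocytes. It was 19.6 ± 3.07% in B cells, 15.9 ± 1.04% in dendritic cells, 18.1 ± 0.969% in macrophages and 20.6 ± 0.783% in monocytes. Rpl22 is known for its part in the development of lymphocytes, in which Rpl22l1 can act against it.

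**Figure D3:**
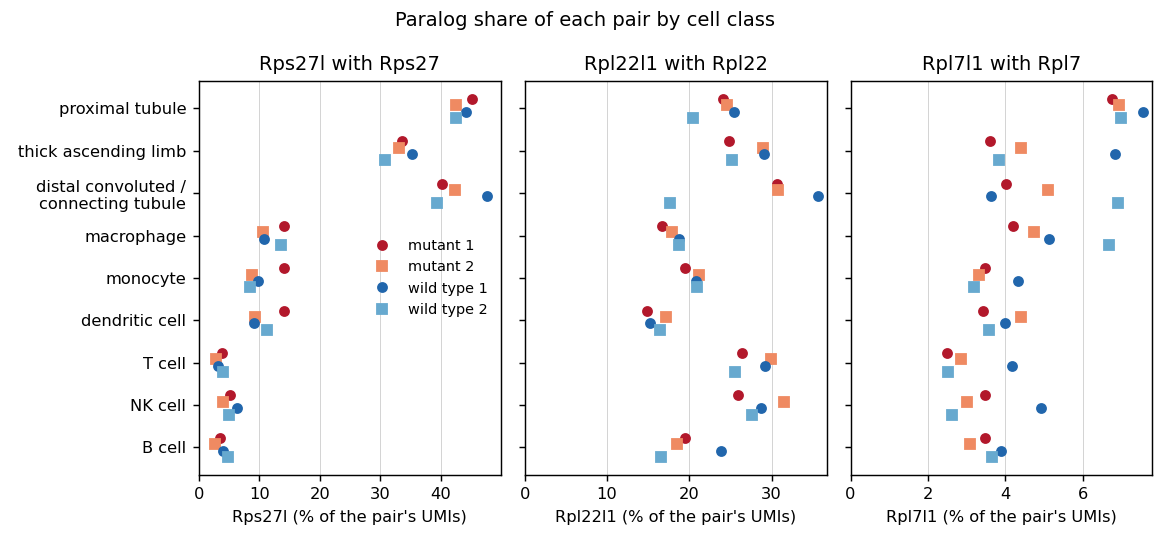
Share of the UMIs of each pair that fell on the paralog (horizontal axes, percent) for Rps27l with Rps27, Rpl22l1 with Rpl22 and Rpl7l1 with Rpl7 in 9 cell classes. Each point is 1 library; Rps27l lies at 30.7% or more in the tubule classes, between 8.40% and 14.1% in the myeloid classes and at 6.35% or less in the lymphoid classes.

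Rpl3l and Rpl39l were rare, with 312 and 122 UMIs in all kept cells. Rpl3l, the form of Rpl3 known from heart and skeletal muscle, had 181 of its 312 UMIs in monocytes, at 19.7 CPM (95% exact Poisson interval 16.9 to 22.8, which covers counting error only). By library that was 10, 98, 50 and 23 UMIs, or 7.71, 21.4, 19.0 and 33.2 CPM. It stood at 11.8 CPM (7.77 to 17.2) in the distal convoluted and connecting tubule, with 8.35, 10.9, 13.3 and 15.3 by library, so that the order of these classes turned in mutant 1. It stood at 6.07 (3.71 to 9.37) CPM in the thick ascending limb, at 0.383 (0.240 to 0.581) in the proximal tubule and at 0.0746 (0.00904 to 0.270) in T cells. It was the second member past the threshold between thick ascending limb and proximal tubule (log2 fold change 3.91, SE 0.68, edgeR adjusted p = 0.000128), from 20 and 22 UMIs. Rpl39l, the testis form of Rpl39, had 57 UMIs in T cells and 1 in the proximal tubule. The T cell UMIs were spread unevenly: 10, 9, 0 and 38 in the 4 libraries. Its level was 2.13 CPM (1.61 to 2.76) in T cells and 0.0174 (0.000441 to 0.0971) in the proximal tubule. It was among the members called higher in T cells (edgeR adjusted p = 0.000187), a call that rests on that 1 proximal tubule UMI, and it missed the filter on low counts without mutant 1 and without wild type 2.

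Between genotypes, no single member passed the threshold. Mutant and wild-type libraries were compared class by class in the 9 classes with at least 50 cells in every library. Of 713 tests of a member in a class, 0 passed by edgeR and 0 by DESeq2, and 5 had an unadjusted p under 0.05 in edgeR. They were 3 in the thick ascending limb (1530 of all 8429 genes), 1 in monocytes (256 of 9234) and 1 in NK cells (410 of 8718). Elsewhere 0 members did. Of all genes, 1277 of 13308 did in the proximal tubule and 222 of 5356 in the distal convoluted and connecting tubule. It was 644 of 12405 in macrophages, 613 of 11731 in dendritic cells, 579 of 11494 in T cells and 371 of 9823 in B cells. The smallest adjusted p was 0.196 (edgeR, Rpl10a in the thick ascending limb). Of all genes tested, 0.511% passed in the proximal tubule, 0.249% in the thick ascending limb, 0.0217% in monocytes and 0% in the distal convoluted and connecting tubule, macrophages, dendritic cells, T cells, NK cells and B cells. In all 9 classes 79 or 80 members passed the filter on low counts. Rpl10l was tested nowhere, Rpl3l only in monocytes and Rpl39l only in T cells.

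The fold changes nevertheless lay to 1 side in these libraries. Mutant over wild type, the median log2 fold change of the members was 0.77 in macrophages, 0.55 in dendritic cells, 0.54 in B cells, 0.48 in monocytes, 0.46 in the proximal tubule, 0.36 in T cells, 0.32 in the thick ascending limb, 0.23 in NK cells and 0.19 in the distal convoluted and connecting tubule. The median of all genes tested lay between -0.02 and 0.02. The value was positive in 649 of the 713 tests, and 59 of the 79 members tested in all classes were positive in every class. Only Rpl23a was negative in every class. Macrophages numbered 2723, 1728, 806 and 54 in the 4 libraries, so their value rests on few cells of wild type 2. That library also held only 54 NK cells, 59 dendritic cells and 69 monocytes. Malat1 moved with the shift: in 7 classes both mutants lay below both wild types. It stood at 12289, 9207, 15656 and 20930 CPM in T cells, at 10096, 7638, 13240 and 17856 in B cells and at 10974, 9009, 15745 and 25878 in macrophages. Its part in the shift of these 7 classes was not tested. The groups overlapped in the proximal tubule and in the distal convoluted and connecting tubule.

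Both subunits had positive medians, and the difference between them was not tested. In the proximal tubule the median was 0.46 over 46 large subunit genes and 0.47 over 30 small subunit genes, and in T cells 0.40 and 0.36. Counted by library, both mutants lay above both wild types for 55 of 79 members in the proximal tubule, where 21.7% of all genes did, for 48 of 79 in B cells (20% of all genes) and for 24 of 80 in T cells (20.2%). The other classes lay between: 39 of 79 in the thick ascending limb (24.7%), 39 in macrophages (24.1%), 37 of 80 in monocytes (19.5%), 32 of 79 in NK cells (20.5%), 29 in dendritic cells (24.5%) and 24 in the distal convoluted and connecting tubule (15.9%). No member had both mutants below both wild types in any class. Of all genes, 20.9% did so in the proximal tubule, 26.5% in the thick ascending limb, 16.7% in the distal convoluted and connecting tubule, 22.3% in macrophages, 19% in monocytes, 23.2% in dendritic cells, 21.3% in T cells, 21.4% in NK cells and 20% in B cells. Members rise and fall together in a library, so these counts are far from independent.

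**Figure D4:**
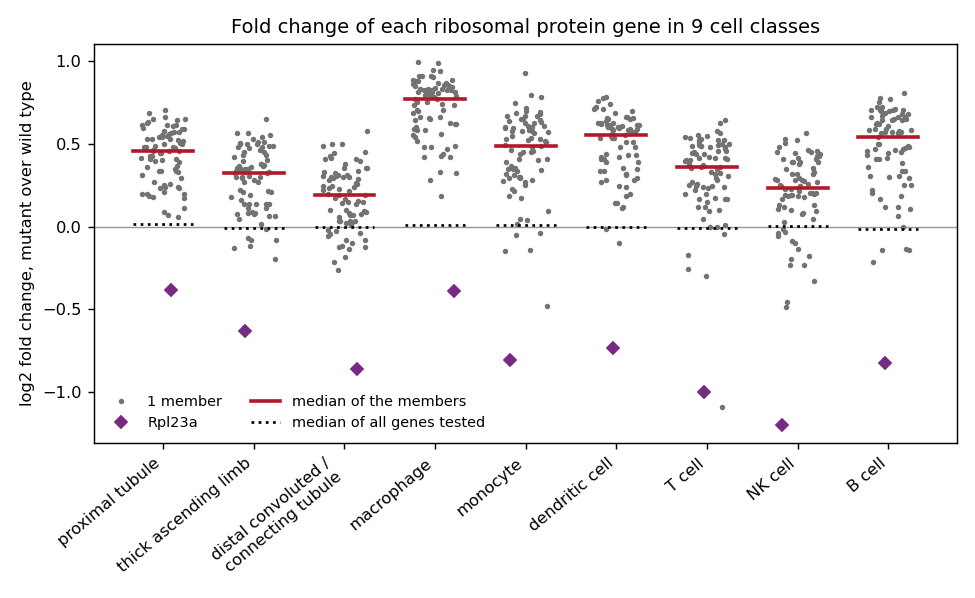
Log2 fold change, mutant over wild type, of each ribosomal protein gene tested (grey points) in 9 cell classes, with the median of the members (red line), the median of all genes tested (dotted line) and Rpl23a (purple diamond). Member medians run from 0.19 to 0.77 and Rpl23a is below 0 in every class; no point passed the threshold.

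Values by library are given for the members with the highest and lowest fold changes and for those with known duties beside the ribosome. TMM-scaled CPM are CPM after the fit's correction for composition. Rps6, the S6 kinase substrate, had the largest fold change in the proximal tubule, with 609, 771, 435 and 413 TMM-scaled CPM (log2 fold change 0.70, SE 0.51, edgeR adjusted p = 0.678). Both mutants lay above both wild types. The spacing of the libraries differed in other members. Rpl19 had 1755, 1633, 1412 and 695 (0.69, SE 0.60, edgeR adjusted p = 0.707), so that wild type 1 lay near the mutants and wild type 2 far below. The stalk protein Rplp0 had 1549, 1737, 1501 and 759, Rpsa 1201, 1212, 1159 and 491, the ubiquitin fusion Rps27a 1610, 1394, 1387 and 695, and the Mdm2-binding Rpl11 1431, 1386, 1190 and 653. In each of these 4 genes wild type 2 was the low library. The remaining stalk proteins moved less: Rplp1 had 1732, 1908, 1537 and 1352, and Rplp2 764, 755, 736 and 712. Rps21, with 934, 901, 1063 and 701, had overlapping groups.

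Leaving out wild type 2 reduced the proximal tubule median from 0.46 to 0.13. Leaving out wild type 1 raised it to 0.89, and 37 members then passed, all higher in the mutants, in a fit that called 12% of all genes (8.41% higher). The deposit of wild type 1 is named in the manner of mutant 2, and that of mutant 1 carries a number other than its labelled load, so that groups here rest on the labels. Wild type 2 is also the library in which the deep, Malat1-rich clusters supplied the most proximal tubule UMIs. Without those clusters the member median was 0.00070 and 40 of 79 were positive. Member shares of those remaining proximal tubule cells were 10.5%, 8.01%, 8.98% and 9.88%, and the groups overlapped. Macrophage markers, 10 of 10 detected, summed to 1774 and 1600 CPM in mutant and 1066 and 504 in wild-type proximal tubule cells, and their part in the result was not tested.

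In the thick ascending limb, Rpl10a of the large subunit had 1050, 889, 663 and 574 TMM-scaled CPM, both mutants above both wild types. Its log2 fold change was 0.65 (SE 0.23, edgeR adjusted p = 0.196). Rpl13, among the most abundant members, had 2183, 1811, 1416 and 1283 there (0.57, SE 0.24, edgeR adjusted p = 0.253). At the low end were Rpl23a, described below, and Rpl7l1 with 50.2, 49.5, 72.8 and 43.5. In the distal convoluted and connecting tubule Rpl18 had 1208, 979, 792 and 674, with the mutants above, while Rplp2 had 1062, 798, 923 and 1306. The module's own share of UMIs did not separate the groups in either segment: it was 9.55%, 6.90%, 6.96% and 7.78% in the thick ascending limb, and 9.47%, 6.51%, 6.75% and 8.99% in the distal convoluted and connecting tubule.

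Among myeloid cells, Rpl10a and Rpl29 led. In macrophages Rpl29 had 2098, 1274, 1259 and 427 TMM-scaled CPM (log2 fold change 0.99, SE 0.59, edgeR adjusted p = 0.718) and Rpl10a 2192, 1454, 1273 and 557. Mutant 2 and wild type 1 were close in both genes, while mutant 1 was high and wild type 2 low. In monocytes Rpl10a had 2219, 1411, 1171 and 730 and Rpl29 2226, 1375, 1288 and 783. In dendritic cells Rpl10a had 3089, 2206, 2005 and 1074 and Rpl29 2740, 1850, 1797 and 879. The same order of libraries recurred in each: mutant 1, mutant 2, wild type 1, wild type 2. Rps15, of the small subunit, lay at the other end, with 1247, 812, 852 and 962 in macrophages and 1635, 1121, 1302 and 1650 in dendritic cells, and its groups overlapped.

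Among lymphocytes, Rpl29 in T cells had 2524, 1785, 1739 and 1023 TMM-scaled CPM (log2 fold change 0.64, SE 0.42, edgeR adjusted p = 0.688), and Rpl10a in B cells had 3497, 2601, 2228 and 1330. In NK cells Rpl29 had 2219, 1860, 1630 and 1122 and Rpsa 5430, 4154, 3783 and 2868. Mutant 1 was the highest and wild type 2 the lowest library in each. The share of UMIs on the module had both mutants above both wild types in B cells and in monocytes. In the other 7 classes the groups overlapped. Libraries drew their B cells from different clusters: 1 cluster led by Sox5 and Fcrl5 held 30 of 178, 192 of 369, 47 of 223 and 833 of 896 cells. Within it the shares were 27.7%, 23.7%, 24.1% and 20.4%, so that the groups overlapped, and in the other, led by Ighd, they were 28.5%, 26.1%, 23.5% and 22.8%, with the mutants above. Likewise a T cell cluster with Foxp3 and Ctla4 among its leading genes held 134 of 967, 498 of 2780, 45 of 495 and 429 of 791 T cells. Within it the shares were 24.3%, 19.1%, 18.8% and 18.5%. The cluster led by Cd8b1 and Cd8a had 27.1%, 23.2%, 23.0% and 20.5%, and that led by Cd40lg and Trat1 had 27.7%, 22.4%, 23.6% and 27.4%. The mutants lay above in the Foxp3 and Cd8b1 clusters, and the groups overlapped in the Cd40lg cluster. The part of this make-up in the T cell shares was not tested.

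The test of whether the genotype effect differed between proximal tubule and T cell found no member past the threshold. The interaction had a median log2 value of 0.08 over 80 members, 0 of 80 and 0 of 14476 genes passed by edgeR (0%), and 0 members and 805 genes had an unadjusted p under 0.05. DESeq2 was not run on it.

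Rpl23a, a large subunit protein near the exit of the peptide tunnel, set wild type 2 apart in the opposite direction. The gene lies at chr11:78180932-78183584 on GRCm38, and 14 pseudogene records carry its name in GENCODE M21. In T cells it had 756, 773, 672 and 2384 TMM-scaled CPM, in NK cells 801, 776, 613 and 3018, and in the proximal tubule 400, 426, 353 and 724. Wild type 1 was the lowest library and wild type 2 by far the highest in each of these classes. Its mutant over wild-type log2 fold change ran from -1.20 in NK cells to -0.38 in the proximal tubule, and no value passed (smallest edgeR adjusted p = 0.405). Without wild type 1, its log2 fold change was -1.15 in the thick ascending limb and -1.39 in the distal convoluted and connecting tubule. Those values compare the mutants with wild type 2 alone, so no call is read from them.

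To see the module's make-up without its overall level, each member was expressed as a share of the module's UMIs, and each library was set against the mean of the other 3 in each class. Of 78 members with at least 20 UMIs in every library and class, 54 moved to the same side in all 9 classes in wild type 2, against 43, 49 and 46 in mutant 1, mutant 2 and wild type 1. The median over classes exceeded a log2 shift of 0.5 upward for 11 members in wild type 2 and for 0 in each other library. Downward it did so for 4, 1, 7 and 4 members in mutant 1, mutant 2, wild type 1 and wild type 2. Because each library was set against the other 3, a member high in 1 library lowers the values of the others. The counts of the libraries are therefore not independent. Rpl23a led with 2.03 (1.49 to 2.13 over the classes). Rps15 followed with 1.05 and Rpl5 with 1.05, then Rps25 with 0.96 and Rplp2 with 0.89. Lower in wild type 2 were Rpl6 with -0.54, Rpsa with -0.52, Rpl29 with -0.52 and Rpl21 with -0.51. Rps25, Rpl6 and Rpl21 are named here after their values were seen. The pattern separates wild type 2 from wild type 1 as much as from the mutants, and lymphoid, myeloid and tubule cells of that library shared it.

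**Figure D5:**
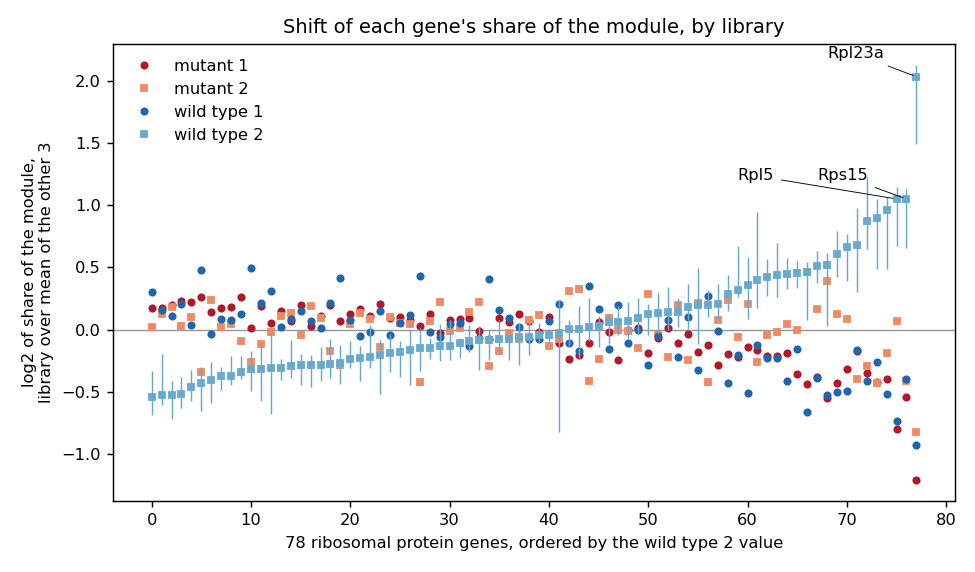
Log2 of each gene's share of the module in 1 library over the mean of the other 3 (vertical axis, median over 9 classes) for 78 ribosomal protein genes, ordered by the value of wild type 2. Lines give the range of wild type 2 over the classes; Rpl23a reaches 2.03 in wild type 2, and 11 genes exceed 0.5 there and 0 in the other libraries, while 4, 1, 7 and 4 genes lie under -0.5 in the 4 libraries.

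Genes near the module were read beside it, from lists drawn up with earlier results of these data known. No gene of any list passed the threshold in any class by edgeR. Elongation factors and other TOP genes had 16 of 19 positive in the proximal tubule (median 0.37) and 19 of 19 in macrophages (median 0.61), with 0 at an unadjusted p under 0.05 in either. Eef1d, a subunit of the elongation factor eEF1B, had 260, 255, 233 and 102 TMM-scaled CPM in the proximal tubule, again lowest in wild type 2.

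Ribosome biogenesis genes had 36 of 40 positive in the proximal tubule (median 0.42) but 22 of 40 in B cells (median 0.05). Nhp2, of the box H/ACA particles that modify ribosomal RNA, had 70.2, 81.4, 34.1 and 35.9 TMM-scaled CPM in the thick ascending limb (log2 fold change 1.11, SE 0.26, edgeR adjusted p = 0.111), where both mutants lay above both wild types. Regulators of TOP translation gave no common sign, with 6 of 12 positive in the proximal tubule. Ribosome quality control genes had negative medians in all 9 classes, from -0.43 to -0.08. Ascc3, a helicase that splits collided ribosomes, had 47.7, 42.5, 68.2 and 94.6 in the thick ascending limb (-0.87, SE 0.27, edgeR adjusted p = 0.166).

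The mitochondrial ribosomal proteins, which serve the translation system that the mutated transfer RNA belongs to, had medians of 0.45 to 0.63 in 8 classes and of -0.01 in the distal convoluted and connecting tubule. In the thick ascending limb 25 of 78 had an unadjusted p under 0.05, where 1530 of all 8429 genes did, and 0 passed after adjustment by edgeR. In T cells 78 of 78 were positive, with a median of 0.54, where the cytosolic members had 72 of 80 positive and a median of 0.36. The difference between the lists was not tested.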

How the data were processed

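Raw UMI counts per gene and barcode were deposited by the authors for 4 libraries. Per the file headers, the mutant matrices come from Cell Ranger 7.0.0 and the wild-type matrices from 7.1.0, so software version and group coincide. The build is mm10 per the submitters' processing notes. The annotation release is not given in the sources used here. The names of the wild type 1 and mutant 1 deposits do not match their labels, and groups follow the labels.

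Kept barcodes had 200 or more genes, 500 or more UMIs and a mitochondrial share up to 50%, and Scrublet doublet calls were removed (239, 155, 97 and 122). Cells were clustered in scanpy 1.11.5 (2000 variable genes, 30 components, 15 neighbours, leidenalg 0.10.2 at resolution 1). Clusters were named from marker lists when 3 or more markers were each found in 10% of their cells, which left 3 of 32 clusters unnamed. Members were left out before the variable genes were picked. In the alternative that let them in, 0 were picked, so it cannot show what members would do to the clusters.

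Sums of UMIs per library and class were tested, which makes the mouse the replicate (2 per group). The p-values measure the spread between these libraries. A single-value permutation test cannot go below 0.333 with 2 against 2, so none was run. Genes passing filterByExpr were scaled by TMM and tested with the quasi-likelihood test of edgeR 4.0.16, adjusted by Benjamini-Hochberg within a class at 0.05. DESeq2 1.42.0 was run beside it. The edgeR fits were tested on simulated data, whose outcome is not reported here and is not used as support for these p-values. Shares of UMIs carry no test. In bulk sums, fewer cells of a state and less RNA per cell cannot be told apart. Starts are from RefSeq (GRCm38.p6) and gene positions from GENCODE M21, in which all 82 members matched by gene ID. Reads shared with pseudogenes or paralogs may have been lost or split in counting.

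Named members were those past the threshold (up to 6 of smallest p), or else the 2 highest and 2 lowest fold changes of a class, the 5 most abundant, the stalk, p53-linked and paralog genes, and the 3 highest and 3 lowest ratios of module share between T cell and proximal tubule at 30 CPM or more. Some genes that this rule names are not reported here. Members and lists were chosen with earlier results of these data known. Alternatives changed the tool, scaling, filters, pairing, clustering and library set.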

Additional observations from a re-analysis of the deposited data

How the results depend on the processing

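Over the 32 counts, medians and shares followed, 355 values under the alternatives stayed within the limit set for them and 51 moved beyond it. The limit was 1.5 times for a count and 1 SD between libraries for a median or share. Leaving out 1 library at a time gave 0 to 37 members past the threshold in the proximal tubule, 0 to 1 in the thick ascending limb and 0 to 1 in the distal convoluted and connecting tubule (all without wild type 1), and 1 to 9 between thick ascending limb and proximal tubule (9 without wild type 2). Member medians then ran from 0.13 to 0.89 in the proximal tubule, 0.11 to 0.48 in the thick ascending limb, -0.0093 (without mutant 1) to 0.38 in the distal convoluted and connecting tubule, 0.40 to 1.33 in macrophages, 0.18 to 0.68 in monocytes, 0.23 to 0.89 in dendritic cells, 0.15 to 0.62 in T cells, 0.10 to 0.38 in NK cells, 0.34 to 0.75 in B cells and 1.19 to 1.44 for T cell against proximal tubule.

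With library totals, which put the median of all genes between -0.29 and -0.13 in the 9 classes, member medians were 0.29 in the proximal tubule, 0.17 in the thick ascending limb, 0.0020 in the distal convoluted and connecting tubule (40 of 79 positive, against 63), 0.43 in macrophages, 0.26 in monocytes, 0.24 in dendritic cells, 0.19 in T cells, 0.074 in NK cells, 0.27 in B cells and 1.64 for T cell against proximal tubule, where Rpl7l1 turned to 0.014. Scaled to the sum of member UMIs, which sets the module's level to a constant by construction, medians were 0.016 in the proximal tubule, 0.013 in the thick ascending limb, 0.049 in macrophages, 0.011 in monocytes, 0.038 in dendritic cells, 0.0044 in T cells, 0.00056 in NK cells, 0.011 in B cells and -0.019 for T cell against proximal tubule. On that scale 1 member passed in T cells between genotypes (Rpl23a, lower, log2 fold change -1.42, edgeR adjusted p = 0.0169), where 79 of all 11494 genes did. With the same scaling 46 members passed for T cell against proximal tubule and 9 for thick ascending limb against proximal tubule. DESeq2 called 6 in the last comparison, where it called 4544 of all 12921 genes. With 1 library left out, where 1 to 9 members passed in that comparison, 4118 to 4849 of all 12407 to 13281 genes did.

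Without the deep proximal tubule clusters, an alternative chosen after seeing the data, the genotype median was 0.00070 there, the share difference was -0.16 percentage points in place of 1.38, the median for T cell against proximal tubule was 0.63, and thick ascending limb against proximal tubule had 80 members past the threshold, where 60.2% of all genes passed, and a median of -0.86. The cause of these shifts was not tested.

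With the replicate number as a block, 0 members passed in any class (smallest adjusted p = 0.0506, edgeR, in monocytes). Members at an unadjusted p under 0.05 went from 0 to 63 in macrophages, 1 to 46 in monocytes, 0 to 53 in dendritic cells, 0 to 26 in T cells and 0 to 47 in B cells. All genes at that level rose too: from 644 to 2324 of 12405 in macrophages and from 256 to 1544 of 9234 in monocytes. They went from 613 to 2201 of 11731 in dendritic cells, 579 to 1290 of 11494 in T cells and 371 to 1214 of 9823 in B cells. Same-numbered libraries deviated together in the 6 immune classes (correlation over genes 0.16 to 0.36), showed -0.022 in the thick ascending limb, and deviated oppositely in the proximal tubule (-0.25) and the distal convoluted and connecting tubule (-0.16), so the numbers alone do not pair the libraries. Crossing the numbers in the latter 2 classes, chosen after seeing the data, also gave 0 members. Of 61 named fold changes followed through 892 alternative values, 831 kept direction and side of the threshold, 10 came to pass it, 9 ceased to, 1 that had passed changed sign (Rpl7l1, above) and 41 that never passed changed sign. With 54 cells, the macrophages of wild type 2 limit what can be said of that class. The same limit holds for its NK cells (54), dendritic cells (59) and monocytes (69).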

Other observations

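Named pseudogene and look-alike features beside the module held few UMIs. Rpl10-ps3 had 4338, 3624, 1460 and 1922 UMIs in kept cells (mutant 1, mutant 2, wild type 1, wild type 2), Rpl9-ps6 3103, 2483, 1026 and 1275, Rpl36a-ps1 601, 522, 259 and 351, and Rps27rt, a retrotransposed copy of Rps27, 3948, 4779, 1890 and 3227. Rpl36-ps4 had 0. GENCODE M21 lists 298 pseudogene records named after 60 of the 82 members, so the features counted here cover few of them.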
